A study of Mus musculus with 3 samples.

Results

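Thrombospondins, tenascins and periostin are secreted proteins of the extracellular matrix that tune how cells attach to it more than they build it. The 8 genes described here are the thrombospondin genes *Thbs1*, *Thbs2*, *Thbs3* and *Thbs4*, the tenascin genes *Tnc*, *Tnn* and *Tnxb*, and *Postn*, which encodes periostin. They were picked by symbol out of the 31053 genes in the count files, with their levels in these libraries already known, so that every value below is a description and carries no test.

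In day 5 masses, *Tnn* and *Tnc* were highest in stromal cells of the Vehicle library, *Tnxb* and *Thbs4* were lowest there, and *Thbs1* was higher in both libraries that held rhBMP2 than in the library without it. *Thbs2*, *Thbs3* and *Postn* differed by less than 2-fold between any 2 libraries.

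The masses grew from subcutaneous Matrigel implants, a basement membrane gel, in female CD-1 mice of 6 to 8 weeks. Matrigel-only implants held no added growth factor and these mice were dosed with nothing, so that this group differs from the others in the oral vehicle as well as in rhBMP2. Vehicle and Palo implants held rhBMP2, recombinant human bone morphogenetic protein 2, which induces ectopic cartilage and bone. By mouth, Vehicle mice received corn oil with DMSO and Palo mice 4 mg/kg of palovarotene, an agonist of retinoic acid receptor gamma. The question behind the design was which cells of the early mass change under rhBMP2 and under the drug. On day 5 the masses were dissociated with dispase and the cells of each group were run as 1 droplet library, so that no difference between groups has a replicate check.

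Thrombospondins come as trimers, the products of *Thbs1* and *Thbs2*, and as pentamers, the products of *Thbs3*, *Thbs4* and the related *Comp*. The trimers inhibit vessel growth through CD36 and bind CD47, and thrombospondin 1 also releases TGF-β from its latent form. Tenascin C is made in embryonic mesenchyme, at wound edges and in forming skeletal tissue, tenascin W (*Tnn*) mostly in periosteum and bone-forming cells, and tenascin X (*Tnxb*) in the loose connective tissue of adult skin, where it holds collagen fibrils together. Periostin is made in periosteum, fascia and healing wounds and binds collagen I and tenascin C.

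The 3 libraries held 44252421 to 46901673 unique molecular identifiers (UMIs) on 6065 to 9249 barcodes, and 5478 to 8728 cells passed the limits on genes and mitochondrial UMIs. A cell was called stromal when *Col1a1*, *Col1a2*, *Col3a1*, *Dcn* and *Lum* made up at least 1% of its UMIs. This gave 2085 Matrigel-only, 1373 Vehicle and 1184 Palo cells, with medians of 9082, 17114 and 12955 UMIs. Few cells lay near the limit. Between 0.5% and 1% there were 56, 52 and 10 cells and between 1% and 2% there were 38, 99 and 8, in the same order. The label was checked on 7 other stromal genes (*Pdgfra*, *Pdgfrb*, *Prrx1*, *Col6a1*, *Col6a2*, *Mfap5*, *Fbn1*), which summed to 9167, 5104 and 8374 counts per 1000000 UMIs (CPM) in these cells and to 84.2, 78.4 and 50.8 CPM in macrophages. Of the 7, *Pdgfra*, *Mfap5* and *Fbn1* were at least 2-fold lower in Vehicle stromal cells than in Matrigel-only and in Palo. Among genes with a mean of at least 5 CPM, 9.79% and 6.89% were so. The 10 macrophage markers summed to 511, 166 and 354 CPM in stromal cells against 16099, 13742 and 15941 in macrophages. The libraries shared 11 to 21 barcodes in each pair, and at most 1 of these was stromal in both libraries.

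Stromal cells were split by the rule into 4 states that do not overlap. Cells with a UMI of *Acan*, which encodes the cartilage proteoglycan aggrecan, numbered 779 in Vehicle, 1 in Matrigel-only and 4 in Palo. Cells with *Sox9*, the transcription factor of cartilage formation, but no *Acan* numbered 493, 391 and 405. Cells with *Pi16*, a marker of fibroblast progenitors of the fascia, and neither of the others numbered 1012, 80 and 312, and cells with none of the 3 genes numbered 579, 123 and 463. All cells with a *Pi16* UMI, whatever their *Sox9* and *Acan*, numbered 1153, 167 and 368. Below, *Pi16* cells are those of the state unless all cells with a *Pi16* UMI are named. The *Acan* state could be measured in Vehicle alone, since levels were given for states of at least 20 cells. Detection rises with depth, and the median depth of the 10 states given ranged from 8144 to 18052 UMIs.

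A level below is the gene's summed UMIs scaled to 1000000 UMIs of the same cells, in CPM, with an exact Poisson 95% interval. A share is the percentage of cells with a UMI after each cell was thinned to 3100 UMIs, with an exact binomial 95% interval. Both intervals cover counting error alone. The plot of levels by library gives all 8 genes.

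**Figure D1:**
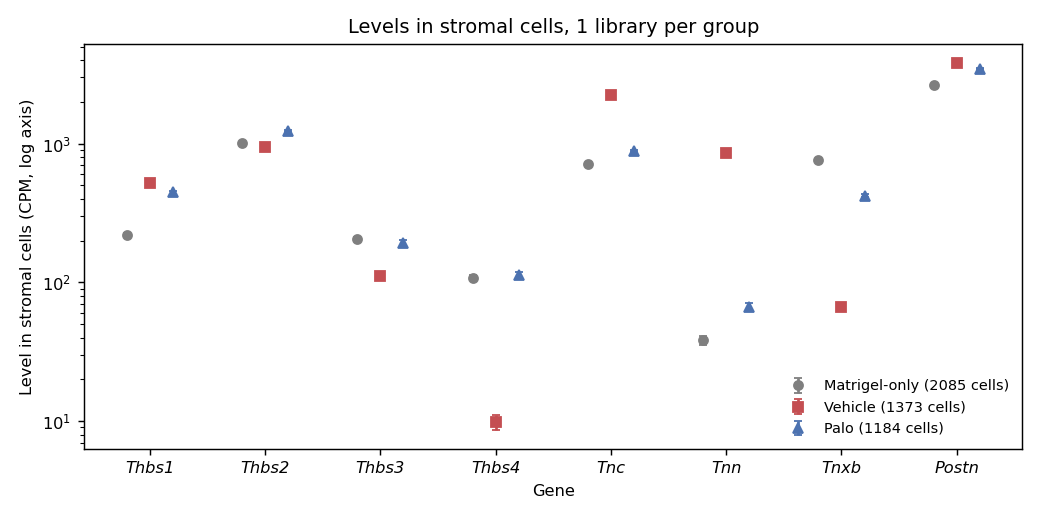
Level of each gene (CPM, log axis) in stromal cells of the Matrigel-only (circles), Vehicle (squares) and Palo (triangles) libraries, with 1 library per group and bars for the exact Poisson 95% interval. *Tnn* stood at 861 CPM in Vehicle against 38.3 and 66.8 in the other libraries, and *Thbs4* at 9.79 against 108 and 113.

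The tenascins did not move together between the libraries, so the sequence just upstream of each start is shown for these 3 genes. *Tnn* lies at chr1:160085029-160153580 on the minus strand, *Tnc* at chr4:63959785-64047015 on the minus strand and *Tnxb* at chr17:34670535-34719815 on the plus strand of mm10 in GENCODE vM21. Sequences are from RefSeq on GRCm38.p6, 5′ to 3′ on the gene's strand. Capitals mark matches, on either strand, to TATAAA (the core of a TATA box), AGGTCA (the repeat unit of retinoic acid receptor elements), TGANTCA (AP-1), ACAAT (SOX factors), ACGTG (hypoxia element), GGCGCC (a BMP-responsive SMAD motif) or the CArG box of serum response factor.
Tnn, chr1:160153581-160153825, minus strand: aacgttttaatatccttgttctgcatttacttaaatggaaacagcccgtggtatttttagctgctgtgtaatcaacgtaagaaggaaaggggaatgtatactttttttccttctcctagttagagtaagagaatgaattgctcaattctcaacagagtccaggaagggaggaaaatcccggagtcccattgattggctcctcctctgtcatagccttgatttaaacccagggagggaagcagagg
Tnc, chr4:64047016-64047265, minus strand: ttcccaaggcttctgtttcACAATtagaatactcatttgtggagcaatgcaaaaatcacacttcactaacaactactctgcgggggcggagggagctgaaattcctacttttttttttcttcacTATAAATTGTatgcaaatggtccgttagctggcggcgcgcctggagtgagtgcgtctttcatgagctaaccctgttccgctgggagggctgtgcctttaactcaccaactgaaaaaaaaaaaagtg
Tnxb, chr17:34670285-34670534, plus strand: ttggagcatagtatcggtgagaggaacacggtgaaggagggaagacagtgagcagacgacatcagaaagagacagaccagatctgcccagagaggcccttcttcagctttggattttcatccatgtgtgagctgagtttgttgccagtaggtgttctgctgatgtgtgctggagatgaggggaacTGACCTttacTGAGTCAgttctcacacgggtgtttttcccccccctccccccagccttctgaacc

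The *Tnn* window held none of these motifs. The *Tnc* window held the TATA motif once and the SOX motif at 2 places, 1 of which overlaps the TATA motif, and the *Tnxb* window held the retinoid and AP-1 motifs once each. Over the 250 bases before the start of 32536 RefSeq promoters, 12.3% held the TATA motif, 27.4% the SOX motif, 14.0% the retinoid motif and 6.73% the AP-1 motif. The hypoxia motif was held by 16.7% of them, the SMAD motif by 9.65% and the CArG box by 1.48%, and none of the 9 windows examined, which cover each member but *Thbs1*, held any of these 3. A match is a string of letters and was not tied to binding here.

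*Tnn*, tenascin W, was measured at 38.3 CPM (interval 35.6 to 41.1) in Matrigel-only, 861 CPM (850 to 873) in Vehicle and 66.8 CPM (62.9 to 71.0) in Palo stromal cells. Vehicle was thus 22.5-fold above Matrigel-only and 12.9-fold above Palo, and Palo was 1.75-fold above Matrigel-only. The share of stromal cells with a UMI was 75.3% in Vehicle, 4.52% in Matrigel-only and 10.4% in Palo, and the 3 intervals did not overlap. The difference was not carried by the *Acan* cells alone. In cells with *Sox9* and no *Acan* the level of *Tnn* was 60.0, 739 and 92.7 CPM in Matrigel-only, Vehicle and Palo. In cells with none of the 3 genes it was 63.5, 627 and 69.9 CPM. In *Pi16* cells it was 4.58, 60.5 and 6.40 CPM, so that the Vehicle level there was close to the level of *Sox9* cells without rhBMP2. Both levels came from few cells, with a median of 0 in each. The tenth of cells with the most held 93.1% of the *Tnn* UMIs of the 80 Vehicle *Pi16* cells. In Matrigel-only *Sox9* cells it held 92.2%. Over all cells with a *Pi16* UMI, those with *Sox9* or *Acan* included, *Tnn* was at 9.54, 269 and 8.68 CPM. The closeness of the 2 levels is thus limited to *Pi16* cells without *Sox9* and *Acan*. Vehicle macrophages and T/NK cells had *Tnn* at 9.96 and 14.0 CPM. The libraries were also compared over the states other than *Acan*, each state weighted by its mean share in the pair of libraries compared. At this common mix the log2 ratio of *Tnn* was 3.50 for Vehicle over Matrigel-only and 3.06 for Vehicle over Palo, against 4.49 and 3.69 in all stromal cells and 4.099 and 3.318 when *Acan* cells were left out and each library kept its own mix.

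*Tnc*, tenascin C, was measured at 713 CPM (702 to 725) in Matrigel-only, 2239.6 CPM (2220.5 to 2259) in Vehicle and 891 CPM (877 to 906) in Palo stromal cells. Its share of cells was 25.4%, 88.4% and 46.3%. Vehicle was 3.14-fold above Matrigel-only and 2.51-fold above Palo, and Palo was 1.25-fold above Matrigel-only. Among the states, *Pi16* cells had the lowest *Tnc* in every library, at 106, 225 and 164 CPM. Over all cells with a *Pi16* UMI it was at 238, 792 and 206 CPM. *Sox9* cells had 1225, 2325 and 1084 CPM, and cells with none of the 3 genes had 1047, 3179 and 1061 CPM. In *Sox9* cells the Palo level was thus below the Matrigel-only level (log2 -0.18, interval -0.22 to -0.13), while the share of cells was higher in Palo, 59.4% against 46.5%. The level and the share put those libraries in opposite orders, and no order is read from them.

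**Figure D2:**
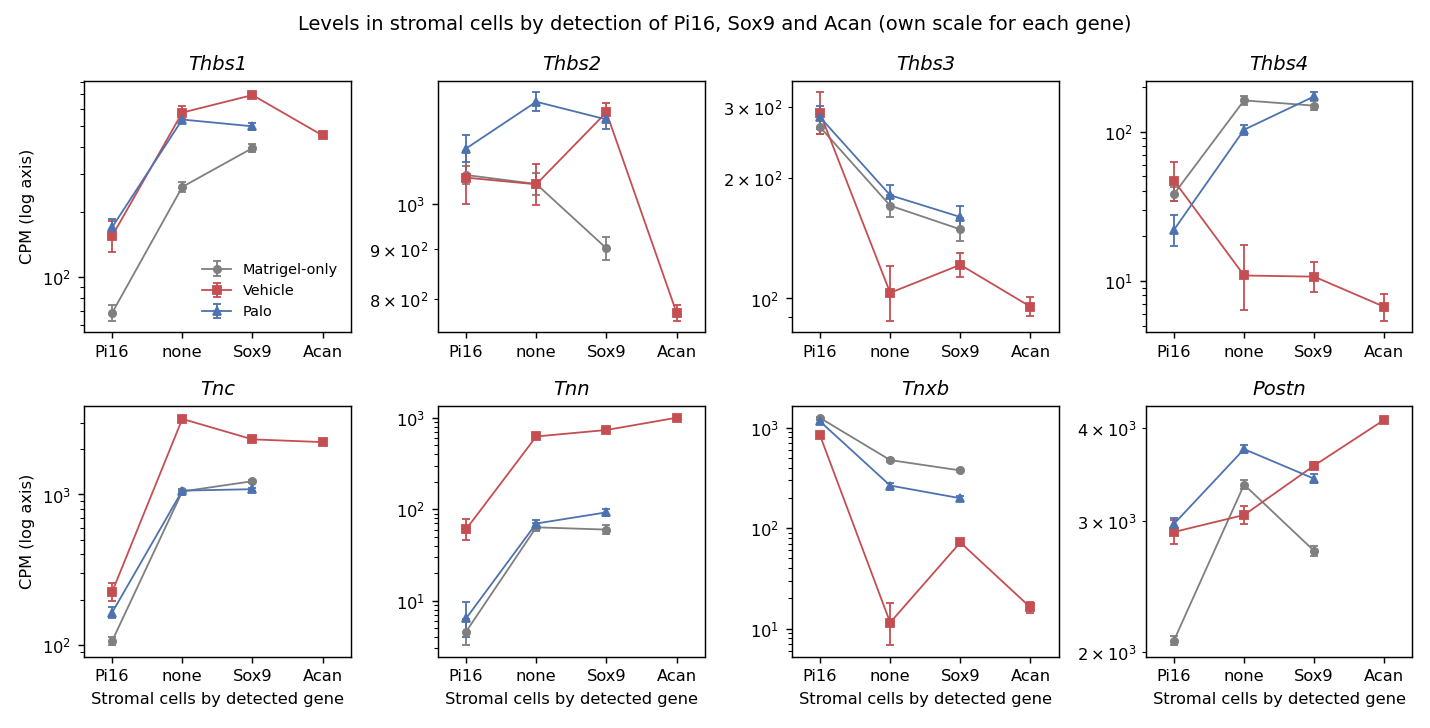
Level (CPM, log axis, own scale for each gene) of the 8 genes in stromal cells split by the detected gene, with *Pi16*, none of the 3, *Sox9* without *Acan*, and *Acan* from left to right, 1 line per library and bars for the exact Poisson 95% interval. *Acan* cells are drawn for Vehicle alone (779 cells), and *Tnxb* was between 837 and 1249 CPM in *Pi16* cells of each library but at 11.5 CPM in Vehicle cells with none of the 3.

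*Tnxb*, tenascin X, showed the opposite order. It was measured at 766 CPM (754 to 778) in Matrigel-only, 66.2 CPM (62.9 to 69.5) in Vehicle and 422 CPM (412 to 433) in Palo stromal cells. Matrigel-only was 11.6-fold and Palo 6.38-fold above Vehicle, and the shares of cells were 72.1%, 8.08% and 47.6%. *Pi16* cells held most of it and differed least, with 1249, 837 and 1155 CPM. Outside them the libraries stood further apart. *Sox9* cells had 375, 71.99 and 198 CPM, and cells with none of the 3 genes had 475, 11.5 and 265 CPM. Over all cells with a *Pi16* UMI, those with *Sox9* or *Acan* included, *Tnxb* was at 1141, 569 and 997 CPM. In all cells without a *Pi16* UMI it was at 404, 7.15 and 218 CPM. Leaving out the *Acan* cells took the log2 ratio of *Tnxb* from -3.53 to -2.47 for Vehicle over Matrigel-only and from -2.67 to -1.62 for Vehicle over Palo. The common mix of the other states took it on to -1.08 and to -0.96, the latter under 2-fold. The shares of stromal cells in the *Pi16* state were 48.5%, 5.83% and 26.4% in Matrigel-only, Vehicle and Palo.

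*Tnxb* was lower in cells with a UMI of *Tnc* than in cells without one, though many cells held both. Of 656, 1246 and 721 stromal cells with a *Tnc* UMI in Matrigel-only, Vehicle and Palo, 378, 54 and 357 also had one of *Tnxb*. In stromal cells with a UMI of *Tnc*, the level of *Tnxb* was 308, 23.9 and 180 CPM. In stromal cells without one it was 1080.5, 796 and 943 CPM. *Tnn* went with *Tnc*, since its level was 93.2, 910 and 93.8 CPM in cells with a *Tnc* UMI and 0.59, 13.9 and 8.93 CPM in cells without. Across single stromal cells, Pearson's r of the log-scaled levels of *Tnc* and *Tnn* was 0.54, 0.65 and 0.44, and that of *Tnc* and *Tnxb* was -0.61, -0.64 and -0.61. Cells of a library share their depth and source, so these are descriptions over 2085, 1373 and 1184 cells.

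**Figure D3:**
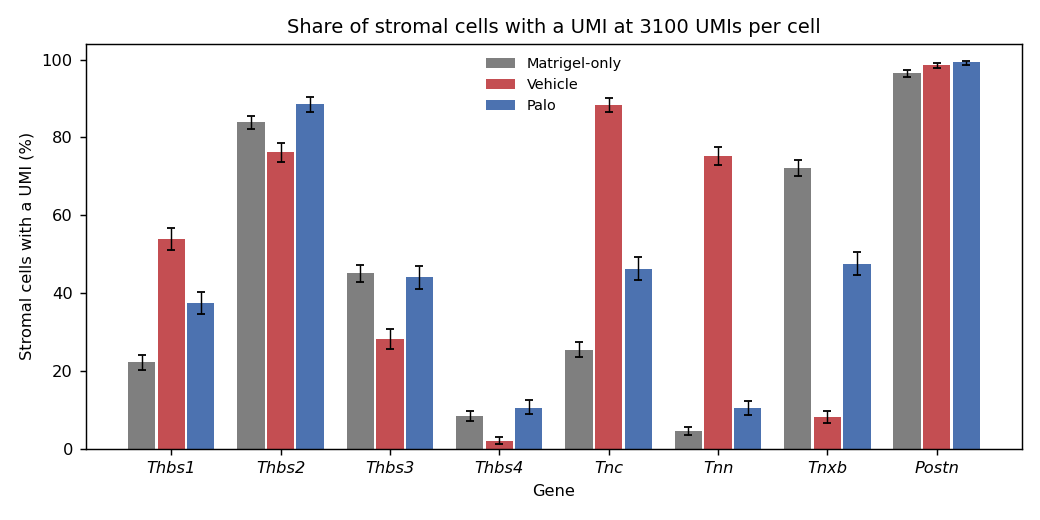
Share of stromal cells with a UMI (%) of each gene after thinning to 3100 UMIs per cell, with 1 bar per library and lines for the exact binomial 95% interval. *Tnc* and *Tnn* were found in 88.4% and 75.3% of Vehicle cells, and *Tnxb* in 8.08%.

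*Thbs1* encodes thrombospondin 1 and lies at chr2:118111876-118127133 on the plus strand. It was measured at 220.5 CPM (214 to 227) in Matrigel-only, 522 CPM (513 to 531) in Vehicle and 446 CPM (435 to 456) in Palo stromal cells. Its shares of cells were 22.2%, 53.9% and 37.4%. Both rhBMP2 libraries were above Matrigel-only, by 2.37-fold in Vehicle and 2.02-fold in Palo, and Vehicle was 1.17-fold above Palo. In *Pi16* cells *Thbs1* was at 68.6, 155 and 171 CPM, in *Sox9* cells at 396, 695 and 499 CPM and in cells with none of the 3 at 262, 577 and 536 CPM. The intervals of Vehicle and Palo overlapped in the *Pi16* state and in cells with none of the 3. The share of cells was 6.85 and 12.9 points higher in Vehicle than in Palo there. In the *Pi16* state level and share thus put Vehicle and Palo in opposite orders, and no order is read. Over all cells with a *Pi16* UMI, *Thbs1* was at 112, 338 and 258 CPM. At the common mix of states, without *Acan* cells, the log2 ratio to Matrigel-only was 0.96 for Vehicle and 0.77 for Palo, both under 2-fold. It was 1.497 and 1.014 when *Acan* cells alone were left out.

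*Thbs1* is also an immediate early gene, and the 14 genes of a list that dissociation induces (*Fos*, *Egr1*, *Atf3* and others) summed to 1790, 1170 and 1920 CPM in Matrigel-only, Vehicle and Palo stromal cells. Of the 14, 11 were at least 2-fold lower and 1 (*Ier3*) higher in Vehicle than in Matrigel-only. Against Palo 11 were lower in Vehicle, and 0 differed by 2-fold between Palo and Matrigel-only. Of all genes with a mean of at least 5 CPM, 9.79% were lower and 4.92% higher in Vehicle than in Matrigel-only. Against Palo 6.89% were lower in Vehicle, and 2.79% differed between Palo and Matrigel-only. The list was lowest in the library with the highest *Thbs1*. Within libraries, *Thbs1* was higher in *Sox9* cells than in *Pi16* cells of each library. The list had the same order in Matrigel-only, with 2039 CPM in *Sox9* and 1614 CPM in *Pi16* cells. It did so in Palo too, with 2210 and 1299 CPM. In Vehicle the list had the opposite order, with 1138 and 1218 CPM. The part of the list in the levels of *Thbs1* was not tested.

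*Thbs2* encodes the other trimeric thrombospondin and lies at chr17:14665500-14694235 on the minus strand. Its level was 1015 CPM (1001 to 1029) in Matrigel-only, 945 CPM (933 to 958) in Vehicle and 1227 CPM (1209.6 to 1244) in Palo stromal cells, and its shares of cells were 83.9%, 76.2% and 88.5%. The 10 states given ranged from 775 CPM in Vehicle *Acan* cells to 1271 CPM in Palo cells with none of the 3 genes. With *Acan* cells left out, the levels were 1015, 1191 and 1223 CPM in Matrigel-only, Vehicle and Palo, so that Vehicle was not lowest. The share of those cells still differed by -1.74 points between Vehicle and Matrigel-only. In *Sox9* cells the levels were 901, 1240 and 1219 CPM.

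Within the Vehicle *Acan* cells, *Thbs2* was lower the more *Acan* a cell held. It was at 1137 CPM in 105 cells with 1 to 2 *Acan* UMIs, 1089 CPM in 92 cells with 3 to 9, 736 CPM in 517 cells with 10 to 99 and 290.0 CPM in 65 cells with 100 or more. *Tnn* went the other way, with 807, 899, 1051 and 1070.1 CPM, and *Thbs1* showed no order, with 466, 488, 430.2 and 536 CPM. *Tnc* was at 2432, 2327, 2234 and 1869 CPM, and *Postn* was highest at 3 to 9 *Acan* UMIs, with 3703, 4981, 4223 and 3087 CPM. Of the 226 *Tnxb* UMIs in *Acan* cells, 207 were in the cells with 1 to 2 *Acan* UMIs and 19 in the others. A split of the same cells by *Col2a1*, which encodes the collagen of cartilage, gave *Thbs2* at 344 CPM in 301 cells with 3 or more *Col2a1* UMIs and 1067 CPM in 478 cells with fewer. *Tnn* differed little there, at 969 and 1030.5 CPM. Both splits were made after the values were seen, and they used raw counts that were not scaled to the depth of a cell. Of 9967 genes, 12.1% were at least 2-fold lower with 100 or more *Acan* UMIs than with 1 to 2, and 5.88% were higher. Of the 7 members counted there 2 were lower, *Thbs2* and *Tnxb*, and 0 higher. In Vehicle, 7 chondrocyte markers, *Acan* and *Col2a1* among them, summed to 4635 CPM in stromal cells and 46.8 CPM in macrophages. The part of free *Acan* RNA in cells with 1 to 2 *Acan* UMIs was not tested.

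**Figure D4:**
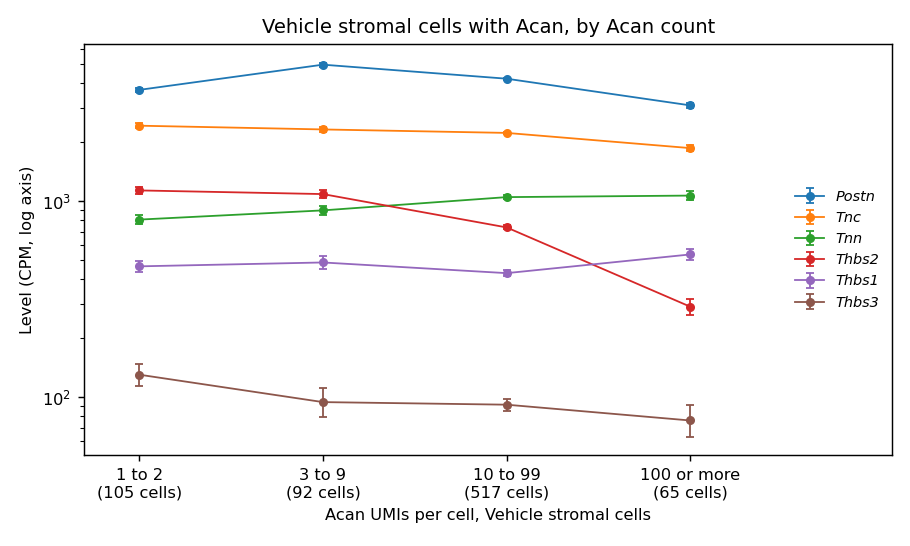
Level (CPM, log axis) of 6 of the genes in the 779 Vehicle stromal cells with *Acan*, ordered by the number of *Acan* UMIs in the cell, with bars for the exact Poisson 95% interval. *Thbs2* went from 1137 to 290.0 CPM across the bins and *Tnn* from 807 to 1070.1 CPM.

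*Thbs3* and *Thbs4* were lower in Vehicle than in the other libraries, while *Comp*, the remaining pentameric thrombospondin, was highest there. *Thbs3*, at chr3:89215180-89226837 on the plus strand, is expressed in developing cartilage and bone and overlaps *Mtx1* on the other strand. It was measured at 204 CPM (198 to 211) in Matrigel-only, 112 CPM (107 to 116) in Vehicle and 193 CPM (187 to 200.4) in Palo stromal cells. In *Pi16* cells its level was 267, 290 and 283 CPM, with overlapping intervals. Over all cells with a *Pi16* UMI it was lowest in Vehicle, with 250, 220 and 265 CPM. In *Sox9* cells it was 149, 121 and 160 CPM. In cells with none of the 3 genes it was 170.3, 103 and 181 CPM, and Vehicle *Acan* cells had 95.4 CPM.

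*Thbs4*, at chr13:92751590-92794818 on the minus strand, encodes the thrombospondin of tendon and muscle attachments. Its level was 108 CPM (103 to 113) in Matrigel-only, 9.79 CPM (8.57 to 11.1) in Vehicle and 113 CPM (108 to 119) in Palo stromal cells, and its shares of cells were 8.39%, 1.99% and 10.5%. Matrigel-only was 11.02-fold and Palo 11.6-fold above Vehicle. It was a gene of few cells with many UMIs. In Matrigel-only 254 of 2085 stromal cells had a UMI and the tenth of cells with the most held 97.9% of the 2163 UMIs. In *Sox9* cells its level was 149, 10.6 and 172 CPM and in cells with none of the 3 it was 162, 10.8 and 103 CPM. In *Pi16* cells it was 38.1, 46.9 and 21.9 CPM, where 9 of 80 Vehicle and 11 of 312 Palo cells had a UMI. When detection was called after thinning, the log2 ratio of Vehicle over Palo in *Pi16* cells turned from 1.10 to -0.37, so no order is read there.

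*Postn*, at chr3:54361109-54391037 on the plus strand, was found in almost every stromal cell. Its shares of cells were 96.5%, 98.6% and 99.3% in Matrigel-only, Vehicle and Palo, and its levels were 2648 CPM (2626 to 2671), 3823 CPM (3798 to 3848) and 3456 CPM (3427 to 3485). Vehicle was 1.44-fold and Palo 1.31-fold above Matrigel-only. The levels of the states ranged from 2071 CPM in Matrigel-only *Pi16* cells to 4106 CPM in Vehicle *Acan* cells. With *Acan* cells left out, the levels were 2645, 3415 and 3459 CPM in Matrigel-only, Vehicle and Palo, so that Vehicle was not above Palo. *Sox9* cells had 2734, 3563 and 3420 CPM. In cells with none of the 3 genes Vehicle was lowest, with 3358, 3057 and 3749 CPM. *Pi16* cells had 2071, 2899 and 2973 CPM, and the intervals of Vehicle and Palo overlapped.

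Counted over the 8 genes, 5 differed by at least 2-fold between Vehicle and Matrigel-only stromal cells, beside 14.7% of the 10349 genes with a mean of at least 5 CPM. These were *Tnn*, *Tnc* and *Thbs1*, higher in Vehicle, and *Tnxb* and *Thbs4*, lower. Between Vehicle and Palo 4 differed by 2-fold, *Tnn* and *Tnc* higher and *Tnxb* and *Thbs4* lower in Vehicle, beside 11.9% of 10233 genes. Between Palo and Matrigel-only *Thbs1* alone did, beside 2.79% of 10230 genes. The median log2 ratio of the 8 genes was 0.21, -0.12 and 0.30 in the 3 comparisons, and that of all genes counted was -0.04, -0.01 and -0.03. Vehicle stands in 2 of the comparisons and Matrigel-only in 2, so they are not independent, and the genes were chosen with these ratios known.

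Within states, the counts of the 8 genes past 2-fold for Vehicle over Matrigel-only were 3 in *Sox9* cells (10% of all genes counted), 3 in *Pi16* cells (7.54%) and 5 in cells with none of the 3 (12%). For Vehicle over Palo they were 4 (8.77%), 2 (7.94%) and 4 (10.3%), and for Palo over Matrigel-only 0 (3.06%), 1 (2.72%) and 1 (2.53%). *Tnn* was past 2-fold in every state of both Vehicle comparisons, though in *Pi16* cells few cells held most of its UMIs. In both, *Tnxb* was past 2-fold in *Sox9* cells and in cells with none of the 3, and not in *Pi16* cells, where Vehicle was at log2 -0.58 against Matrigel-only and -0.46 against Palo. Over all cells with a *Pi16* UMI these log2 ratios of *Tnxb* were -1.002, just past 2-fold, and -0.81.

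Receptors and relatives of these proteins were taken from a list of 36 genes, of which 24, 24 and 23 had a mean of at least 5 CPM in the 3 comparisons of stromal cells. In Vehicle over Matrigel-only 3 were at least 2-fold higher and 4 lower, beside 4.92% and 9.79% of all genes counted. In Vehicle over Palo 4 were higher and 2 lower, beside 5.03% and 6.89%. *Comp*, the cartilage member of the thrombospondin family, had 320.3 CPM in Vehicle, 0.50 CPM in Matrigel-only and 0 UMIs in Palo, at least 1690-fold lower in Palo at a floor of 3 UMIs over the stromal cells. *Tgfbi*, a paralog of *Postn*, had 118, 753 and 198 CPM in Matrigel-only, Vehicle and Palo. *Ddr1*, a collagen receptor, had 19.2, 49.0 and 14.9 CPM, and *Sdc4*, a syndecan that takes part in tenascin C and thrombospondin adhesion, had 137, 242 and 85.5 CPM.

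Integrins of the αv family bind several of the 8 proteins. Of their β chains, *Itgb3* and *Itgb5* were lowest in Vehicle stromal cells, with 93.6, 17.8 and 90.7 CPM for *Itgb3* and 235, 109 and 219 CPM for *Itgb5* in Matrigel-only, Vehicle and Palo. *Itgb1*, the most abundant, had 453, 506 and 514 CPM and the αv chain *Itgav* 109, 98.2 and 111 CPM, all under 2-fold apart, and *Itgb6* and *Itgb8* stood below 1 CPM in each library. *Lrp1*, the endocytic receptor of thrombospondins, had 807, 402 and 597 CPM, and *Tlr4*, a receptor for tenascin C, had 12.8, 4.62 and 8.65 CPM. *Cd47* was below 2-fold in each comparison, with 452, 294 and 357 CPM. Between Palo and Matrigel-only 0 of the 23 differed by 2-fold, beside 2.79% of all genes counted.

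Markers of other cell types also differed between the stromal cells of the libraries. The 6 endothelial markers summed to 57.8, 5.93 and 34.7 CPM in Matrigel-only, Vehicle and Palo, with 1 of them at 0 in each library. *Kdr* and *Tek* made up nearly all of these sums, and *Pecam1* was at 0.75, 0.81 and 0.76 CPM. The 6 markers of pericytes and smooth muscle summed to 219, 919 and 352 CPM. *Acta2* led them with 176, 828 and 316 CPM, while *Kcnj8* went the other way with 30.1, 6.74 and 18.3 CPM and *Rgs5* stood below 1 CPM. Platelets are known for thrombospondin 1 protein, and 5 platelet markers summed to 76.0, 18.4 and 36.6 CPM. Most of this was *Pf4*, at 52.6, 11.06 and 23.6 CPM, which macrophages held at 1803, 1189 and 1274 CPM. *Gp9* had 0 UMIs in each library and *Ppbp* 1, 0 and 0. The part of these cells in the levels of the 8 genes was not tested. With stromal cells past the macrophage limit left out, 117, 27 and 43 cells, the counts of the 8 genes past 2-fold stayed at 5, 4 and 1. The share of all genes past 2-fold was not counted with those cells left out. This limit uses macrophage markers alone and leaves out no cell for its endothelial, pericyte or platelet markers.

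Of all UMIs of these genes in passing cells, stromal cells held 93.4% to 99.5%, gene by gene and library by library. To gauge free RNA, *Postn* was measured outside the stroma. It was at 23.3, 52.0 and 21.0 CPM in macrophages, and at a common depth of 1200 UMIs its share was 2.93%, 7.16% and 2.57% of macrophages against 83.9%, 92.2% and 92.5% of stromal cells. T/NK cells gave *Postn* shares of 4.51%, 7.0% and 2.28%. Median depths were 2906, 3460 and 3948 UMIs in macrophages and 1320, 2054 and 2054 UMIs in T/NK cells. The log2 ratio of *Postn* in macrophages over T/NK cells was -0.31 (interval -1.68 to 1.57), -0.14 (-0.58 to 0.33) and 0.31 (-1.24 to 2.60). In Matrigel-only and Palo these intervals are too wide to tell expression from background. The part of free RNA in these shares was not tested.

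*Thbs1* is known to be made by some macrophages, and in Palo most of its macrophage UMIs lay in a small set of cells. Macrophages, non-stromal cells with at least 0.3% of UMIs from 10 macrophage markers, numbered 5030, 2883 and 4515 in the Matrigel-only, Vehicle and Palo libraries. Their *Thbs1* level was 6.22 CPM (5.08 to 7.54), 14.2 CPM (12.1 to 16.5) and 22.8 CPM (20.8 to 25.04). T/NK cells had 0, 4 and 1 *Thbs1* UMIs, with levels of 0, 5.09 and 5.62 CPM whose intervals reach 26.7, 13.0 and 31.3 CPM. At 1200 UMIs per cell the share of macrophages was 0.685%, 1.93% and 1.74%, and the Vehicle and Palo shares of T/NK cells were 1.06% and 0.911%. Matrigel-only and Palo levels and the shares of macrophages lay within the intervals of T/NK cells. With 0 and 1 T/NK UMIs in Matrigel-only and Palo, those intervals are too wide to tell expression from background. The Vehicle level did not. There macrophages were 2.78-fold above T/NK cells for *Thbs1* (log2 1.48, interval 0.09 to 3.37) and 0.91-fold for *Postn* (log2 -0.14, interval -0.58 to 0.33), on 4 T/NK UMIs of *Thbs1*.

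The 459 Palo UMIs were gathered in few cells. In Palo 51 macrophages held 3 or more *Thbs1* UMIs, 336 UMIs together, against 5 in Matrigel-only and 10 in Vehicle, and the most in 1 cell was 26. The 71 Palo macrophages with a UMI of both *Alox15* and *Prg4*, a lipoxygenase and lubricin, held 322 of the 459 UMIs, or 70.2% (65.7 to 74.3). Of these 71 cells 64 had *Thbs1*, at 971 CPM (867 to 1083), and their share at 1200 UMIs was 63.6%. The other 4444 Palo macrophages were at 6.93 CPM (5.82 to 8.20), which overlaps the 6.22 CPM of Matrigel-only. Vehicle had 3 such cells with 6 *Thbs1* UMIs and Matrigel-only 0, so that without them the order of the libraries was 6.22, 13.7 and 6.93 CPM. The pair *Alox15* and *Prg4* was chosen after the values were seen.

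**Figure D5:**
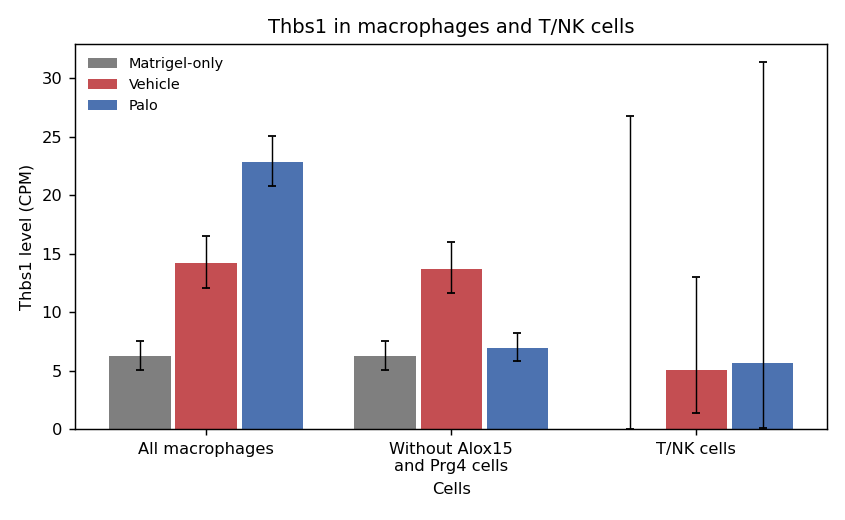
*Thbs1* level (CPM) in all macrophages, in macrophages without cells that hold both *Alox15* and *Prg4*, and in T/NK cells, with 1 bar per library and lines for the exact Poisson 95% interval. Leaving out 71 Palo cells took the Palo level from 22.8 to 6.93 CPM, while Vehicle went from 14.2 to 13.7 CPM.

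These 71 cells were not shallow or stromal. Their median was 4446 UMIs, stromal genes made up a median of 0.0266% of their UMIs, and the macrophage gene *Adgre1* stood at 1423 CPM against 704 CPM in the other Palo macrophages. Other genes of macrophages and leukocytes were lower in them, with *C1qa* at 2764 against 4418 CPM, *Csf1r* at 567 against 995 CPM and *Ptprc* at 283 against 404 CPM. With a macrophage limit of 1% in place of 0.3% of UMIs, 180 of the 459 Palo *Thbs1* UMIs were left. Compared with the other Palo macrophages, *Thbs1* ranked 18 of 2871 genes by fold. *Prg4* and *Alox15* ranked 1 and 2, which follows from their use to pick the cells. *Slpi*, *Selp*, *Ptgis*, *Ltbp1*, *Serpinb2*, *F5*, *Prtn3* and *Wnt2* held ranks 3 to 10. Since the pair was chosen with the *Thbs1* values known, the rank of *Thbs1* is a description. The laminin-binding integrin *Itga6* was at 1191 CPM in the 71 cells and 98.8 CPM in the other Palo macrophages. It was the 1 gene of the list of 36 past 2-fold in Palo over Matrigel-only macrophages, beside 2.65% of all genes counted. Over all macrophages *Itga6* was at 39.5 CPM in Matrigel-only and 117 CPM in Palo, and the 71 cells held 395 of its 2346 Palo UMIs. The other Palo macrophages were thus also above Matrigel-only. The other 7 genes had 0 to 3 UMIs each in the 71 cells.

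The genes whose levels followed each member most closely were taken by Pearson's r of log2(CPM + 5) over the 10 combinations of state and library, among 7771 genes. They were *Cdc42ep3*, *Spc24* and *Atp6v1g1* for *Tnn* (r 0.98 for each), *Smap2*, *Fmnl3* and *Inf2* for *Tnc* (0.99 for each), and *Add3*, *March2* and *Galnt16* for *Tnxb* (0.99 for each). For *Thbs1* they were *Ncam1*, *1700017B05Rik* and *Ppia*, led by 0.976, and for *Thbs2* they were *Ftl1*, *Tmsb4x* and *Col1a2*, led by 0.880. For *Thbs3* they were *Rapgef1*, *Fbxw17* and *Tbc1d12*, led by 0.983, and for *Thbs4* *Eps8*, *Iqgap2* and *Kifap3*, led by 0.967. *Nans*, *Fasn* and *Ikbip* followed *Postn*, led by 0.936. The points share libraries and depths, and with 10 points among 7771 genes high values are found for any pattern.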

How the data were processed

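The deposited values are raw UMI counts for each gene in each barcode, which the authors obtained with Cell Ranger 3.0.2 on mm10. The submitters' processing notes also name Seurat 3, which was not applied to the counts used here. The members and gene lists were chosen with earlier results of these data known.

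Cells with 200 to 6000 genes and at most 5% mitochondrial UMIs were kept, following the study's limits. No doublet caller was run, and stromal cells past the macrophage limit were left out as an alternative. Macrophages were non-stromal cells with at least 0.3% of UMIs from 10 markers, and T/NK cells were other cells with UMIs of at least 3 of 12 markers. Counts were summed over cells, as CPM. Ratios carry conditional binomial and shares exact 95% intervals, which cover counting error alone. For shares, every cell was thinned to 3100 UMIs (stromal cells) or 1200 UMIs (macrophages) with hypergeometric probabilities, leaving out 207, 70 and 54 shallower stromal cells in Matrigel-only, Vehicle and Palo. Genes counted past 2-fold had a mean of at least 5 CPM in the libraries compared. Named genes were the 8 members, the genes of the list of 36 past 2-fold, and the 3 genes most like each member. Genes named by rank in the *Alox15* and *Prg4* cells, the values of *Cd47*, *Itgb1*, *Itgav*, *Itgb6*, *Itgb8* and single markers of other cell types, and the splits by *Acan* and *Col2a1* counts were chosen after the values were seen. Of the gene symbols, 36 were repeated. Some members overlap a gene on the other strand: *Thbs3* and *Mtx1*, *Thbs1* and *Gm29233*, *Tnc* and *8030451A03Rik*, and *Tnxb* and *Cyp21a2-ps*. The use of strand in counting is not given in the sources used here. Whether reads of these pairs were told apart is therefore not known here.

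TMM factors for an alternative scaling came from edgeR 4.0.16 (R 4.3.3). All else was done in Python 3.11.15, using scipy 1.17.1, numpy 2.4.6, matplotlib 3.10.9 and pandas 2.3.3. The calculations were tested on simulated data. Clustering, histology and PCR of the study were not used here.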

Additional observations from a re-analysis of the deposited data

Results flagged for a closer look

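In some places a gene's ratio between libraries had opposite signs in 2 kinds of cells of the same masses, with the counting intervals of both ratios apart from 0. With 1 library per group these differences were not tested. For *Thbs1*, Vehicle over Palo was log2 0.23 in stromal cells and -0.69 in macrophages, a difference of 0.92, and without the macrophages that hold *Alox15* and *Prg4* the macrophage value was 0.98. *Thbs2* was at log2 -0.10 in stromal cells and 0.55 in macrophages for Vehicle over Matrigel-only, a difference of -0.65, and at -0.38 and 0.90 for Vehicle over Palo, a difference of -1.28. With *Acan* cells left out, the stromal values of *Thbs2* were 0.23 and -0.04, so that the former no longer had the opposite sign. The macrophage levels of *Thbs2*, 8.33, 12.2 and 6.52 CPM in Matrigel-only, Vehicle and Palo, lay within the intervals of T/NK cells. The log2 ratio of macrophages over T/NK cells had intervals of -2.30 to 5.52, -1.26 to 0.50 and -2.67 to 2.27. In Matrigel-only and Palo these are too wide to tell expression from background.

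Between *Sox9* and *Pi16* cells, *Thbs4* had log2 -4.02 and 1.10 for Vehicle over Palo, a difference of -5.11. The *Pi16* value turned to -0.37 when detection was called after thinning, so that no opposite order is read from it. For Palo over Matrigel-only *Thbs4* had 0.21 and -0.80, a difference of 1.004, and there the *Pi16* value turned to 1.36 after thinning and to 1.03 with detection by 2 UMIs. *Tnc* had log2 -0.18 in *Sox9* cells and 0.63 in *Pi16* cells for Palo over Matrigel-only, a difference of -0.80, but in *Sox9* cells the share of cells with *Tnc* was higher in Palo, 59.4% against 46.5%, so that no order is read there.

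Cells in none of the 3 classes numbered 1532, 950 and 1528 and enter no comparison above. In Vehicle they held *Tnc* at 72.7 CPM, *Tnn* at 13.5 CPM and *Postn* at 99.9 CPM, each above the interval of the same cells in Matrigel-only.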

How the results depend on the processing

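Of the 10 ratios of single genes between stromal cells that were past 2-fold, 7 stayed past 2-fold in the same direction under each of 11 alternatives. The 9 planned ones were limits of 0.5% and 3% on stromal genes, a 10% mitochondrial limit, no upper limit on genes, TMM scaling, totals without the 50 most abundant genes, means of single cells, removal of stromal cells past the macrophage limit, and the states shared by both libraries, so without *Acan* cells in Vehicle comparisons, weighted by their mean share. The 2 chosen after seeing the data left out *Acan* cells at each library's own mix, or gave the 3 shared states equal weights. The 3 other ratios were lost with both weightings and kept when *Acan* cells alone were left out. *Thbs1* was at 0.96 by mean shares and 0.98 by equal weights for Vehicle, and at 0.77 and 0.73 for Palo, over Matrigel-only. *Tnxb* was at -0.96 and -0.81 for Vehicle over Palo. For Palo over Matrigel-only the count past 2-fold was 0 with both weightings, and 2 with means of single cells. The Vehicle minus Palo share of cells with *Tnn* was 64.9 points, 54.4 when 2 UMIs were asked for and 53.7 at a thinning depth of 1550 UMIs. Within states the Palo over Matrigel-only counts moved: in *Sox9* cells to 2 with detection after thinning and to 1 with means of single cells, in *Pi16* cells to 3 with detection by 2 UMIs and to 4 after thinning, and in cells with none of the 3 genes to 0 under both. In *Pi16* cells the Vehicle over Palo count went to 1 after thinning, where *Thbs4* turned to -0.37. The cause was not tested. Shares of all genes past 2-fold were not counted under any of the alternatives, so these counts have no background beside them.

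For *Thbs1* in macrophages, log2 1.19 for Vehicle over Matrigel-only was 0.80 with a macrophage limit of 0.1%. Palo over Matrigel-only, 1.88, was 1.24 at 0.1%, 1.21 at 1% and 0.16 without cells holding *Alox15* and *Prg4*, an alternative chosen after seeing the data. Vehicle over Palo, -0.69, was -0.011 at 1% and 0.98 without those cells. At 1.5-fold, 14 genes of the list of 36 were counted for Vehicle over Matrigel-only and 3 for Palo over Matrigel-only. The share of all genes past 1.5-fold was not counted. No paired analysis was possible because each group has 1 library and the labels give no replicate numbers.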
